A study of Mus musculus with 6 samples.

Results

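The genes described here are 37 genes of the extracellular matrix, out of 27179 genes in the deposited table, listed by symbol and matched to Entrez identifiers. They were split by role into 22 keratocyte and mesenchyme members, which are the fibrillar collagens, collagens VI and XII, small leucine-rich proteoglycans, matricellular proteins and matrix metalloproteinases with their inhibitors, and 15 microfibril and elastic fibre members. Their RNA was sequenced in lenses of newborn mice, at postnatal day 1, in 3 Gclc KO libraries (KO 1 to 3) and 3 Gclc CON libraries (CON 1 to 3). Strain (B6/FVB) and age were shared by both groups. Gclc makes the catalytic part of the enzyme that limits glutathione production, and the design sets lenses labelled as lacking it against controls. The Cre line, the deleted part of the gene, the sex, the litter and the number of animals per library are not given in the sources used here, so every p-value rests on the spread among 6 libraries, which may be technical.

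The lens zonule is a ring of fibres that holds the lens to the ciliary body, and it is built mainly of fibrillin microfibrils. Fibrillins bind microfibril-associated glycoproteins (MFAPs) and latent TGF-beta binding proteins (LTBPs), and fibulins and lysyl oxidases add elastin to such microfibrils in elastic tissue. Fibrillar collagens, collagen VI and small leucine-rich proteoglycans are in turn the main matrix products of fibroblasts and corneal keratocytes, cells that lie around the lens and not within its capsule. A lens removed whole can carry fragments of the zonule, ciliary epithelium, hyaloid vessels and iris, and in bulk RNA fewer cells of a type and less RNA per cell cannot be told apart.

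Gclc itself stood at 17.9, 72.1 and 58.1 normalised reads in the KO libraries and at 178, 283 and 173 in the CON libraries. Normalised reads are read counts divided by a size factor per library. All KO values lay below all CON values (log2 difference -1.01, SE 0.28, adjusted p = 0.0387 by limma with Benjamini-Hochberg adjustment), and the call was lost without KO 1, KO 2, KO 3 or CON 2 (adjusted p up to 0.13). The libraries held 45842484 to 61219009 reads in genes in KO and 20361430 to 43384443 in CON, and crystallins took 40.5% to 47.5% of the reads in KO and 59.5% to 68.4% in CON. CON 2 was the shallowest library, and a count of 0 there allows up to 3 reads, or 9.44 normalised reads, against 1.59 in KO 3. Such floors cover counting error only. The name of CON 2 also ends in L003, where the names of the other libraries end in L001, and what this label stands for is not given. Of 10 lens genes, 8 were called lower in KO and none higher, and their summed normalised reads ran from 7096594 to 10503124 in KO and from 18803927 to 26391190 in CON, so the tissue label held in every library.

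Matrix genes moved in both directions. Ltbp1, Fbn1, Fbn2, Col11a1, Mmp2, Postn, Fbln1 and Efemp1 rose in KO lenses, and Col6a3 and Ogn, the osteoglycin gene, fell. Col6a1 was also called higher, but passed the filter on low values only through its KO reads. The microfibril and elastic fibre side held 5 of the genes called higher and, by limma on the deposited values or limma-voom on recovered reads, 0 falls, with Mfap2 alone lower at an unadjusted p under 0.05. The keratocyte and mesenchyme side held 4 genes called higher, Col6a1 among them, and 2 falls. This side is named by the role of its genes, and the cells that made their RNA were not tested. Per kilobase of exon in CON, Ogn stood at 9162 and Col6a3 at 977 normalised reads. Kera stood at 0 there, Col1a1 at 1.31, Lum at 19.7 and Col1a2 at 31.0. With limma-voom on recovered reads Col6a1, Postn, Mmp2 and Efemp1 lost their calls. In the fit over all genes, 6.91% of the 11468 tested genes were called higher and 4.39% lower, so 61.1% of the calls were higher. That share was 47.3% when the library medians were made equal. It was 97.5% with limma-voom on reads divided by the library total, which moved the median log2 difference of all tested genes to 0.86. Of the 37 members 25 had enough reads to be tested, 9 were called higher, 2 lower and 14 were not called, and 12 were not tested. The median log2 difference of the tested members was 0.54, against 0.03 for all tested genes. It was 1.15 for the 11 tested members of the microfibril side and 0.16 for the 14 of the other. Under a filter of 3 units on low values, which left 10 members with more reads, the median was -0.53, against -0.08 for all genes tested. Without regard to the test, all 3 KO values lay above all 3 CON values for 14 of the 37 members and below them for 3, where 15.3% and 9.36% of the 19225 genes with reads did so. These counts describe genes that were chosen with earlier results of these data known, and no test was made over the list. When all 27179 genes were tested, Col11a1 and Ltbp1 of the 11 called members were still called. The library names follow 2 styles, with KO 2 and KO 3 apart from the other 4 libraries. With the style as a term in the fit, the difference rests on KO 1 alone against the CON libraries, so no call is read from it. The log2 difference was then 2.2 for Col11a1, -1.49 for Col6a3, 1.96 for Fbn2 and 1.84 for Ltbp1.

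**Figure D1:**
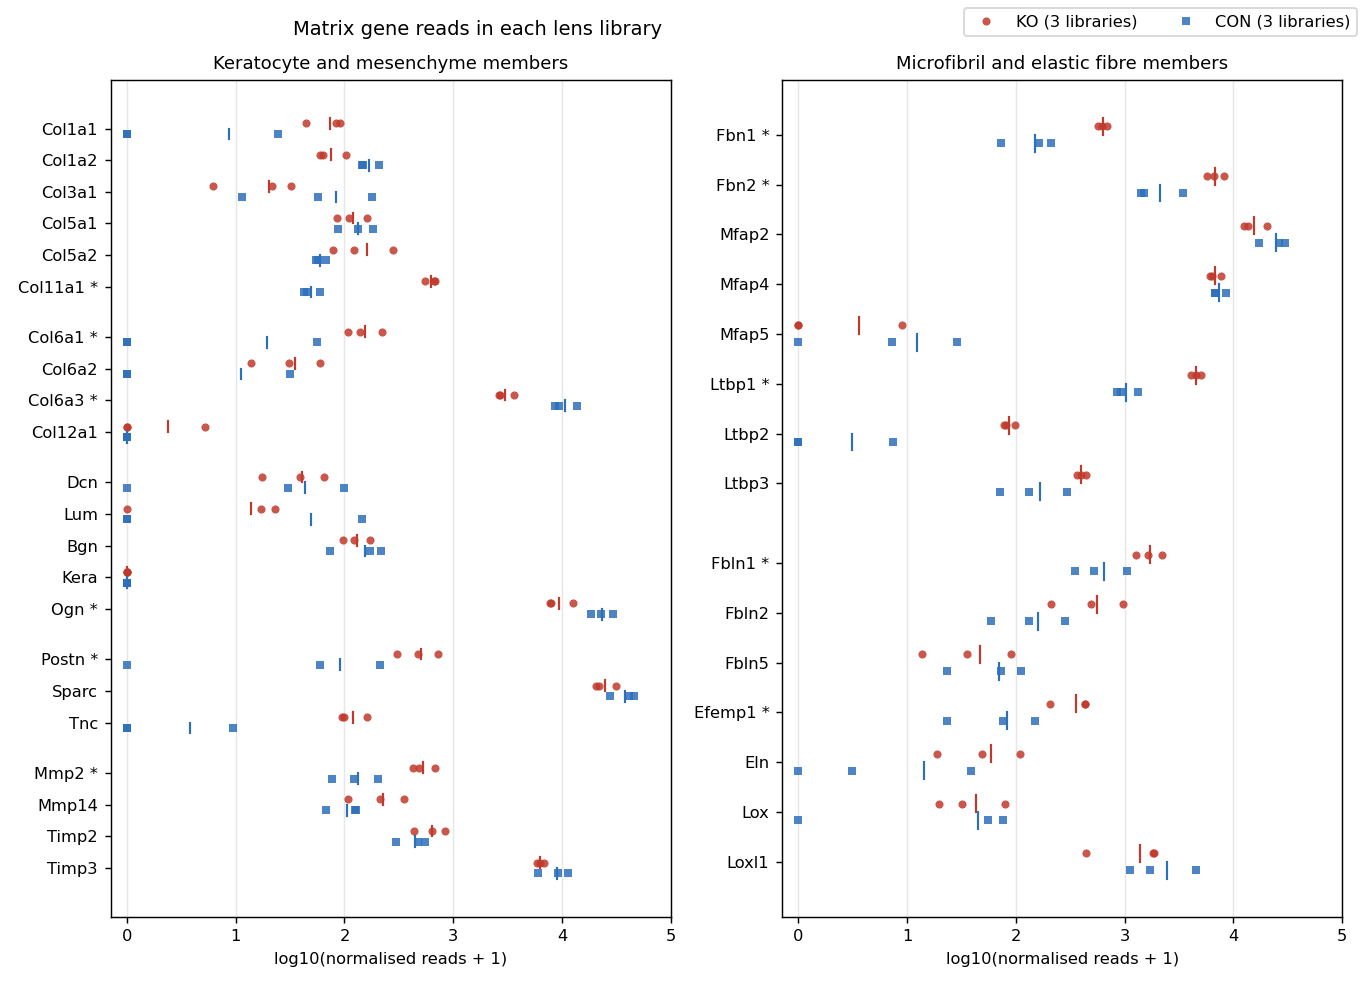
Normalised reads of the 37 matrix genes in each library, as log10(normalised reads + 1), with KO circles above CON squares, short bars at the group means and asterisks on the 11 genes called at an adjusted p under 0.05. Col11a1, Ltbp1, Fbn1 and Fbn2 show separate groups with KO to the right, Col6a3 and Ogn separate groups with KO to the left, and Kera sits at 0 in all 6 libraries.

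Promoter sequences are shown for 4 called members, the 2 that rose with the smallest p (Ltbp1 and Col11a1) and the 2 that fell (Ogn and Col6a3), to let a reader compare the DNA ahead of genes that moved in opposite directions. Each is the 250 bases before the annotated start, 5′ to 3′ on the gene's strand, from RefSeq on build GRCm38.p6, whereas the submitters' processing notes name mm9. For Ltbp1 the first of 2 annotated starts is shown. Capitals mark, on either strand, the CCAAT box (letters CCAAT), the GC box (letters GGGCGG), the TATA box (letters TATAAA), an AP-1 site (letters TGACTCA) or a TEAD site (letters CATTCC).
Ltbp1 promoter, chr17:75005279-75005528, plus strand: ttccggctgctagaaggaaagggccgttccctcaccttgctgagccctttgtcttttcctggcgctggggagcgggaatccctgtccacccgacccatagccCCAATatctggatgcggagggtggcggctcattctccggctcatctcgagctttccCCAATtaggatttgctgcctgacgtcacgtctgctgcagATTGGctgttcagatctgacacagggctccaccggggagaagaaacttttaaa
Col11a1 promoter, chr3:114030290-114030539, plus strand: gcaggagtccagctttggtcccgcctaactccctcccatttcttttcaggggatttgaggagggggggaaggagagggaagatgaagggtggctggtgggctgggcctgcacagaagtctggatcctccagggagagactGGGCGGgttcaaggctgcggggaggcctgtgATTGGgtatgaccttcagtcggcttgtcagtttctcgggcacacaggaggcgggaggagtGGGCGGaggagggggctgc
Ogn promoter, chr13:49607765-49608014, plus strand: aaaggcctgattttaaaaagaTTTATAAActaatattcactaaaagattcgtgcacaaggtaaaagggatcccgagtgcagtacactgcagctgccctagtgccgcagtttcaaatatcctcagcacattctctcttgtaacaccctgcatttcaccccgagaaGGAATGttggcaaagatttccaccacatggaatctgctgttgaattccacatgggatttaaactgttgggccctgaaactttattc
Col6a3 promoter, chr1:90843972-90844221, minus strand: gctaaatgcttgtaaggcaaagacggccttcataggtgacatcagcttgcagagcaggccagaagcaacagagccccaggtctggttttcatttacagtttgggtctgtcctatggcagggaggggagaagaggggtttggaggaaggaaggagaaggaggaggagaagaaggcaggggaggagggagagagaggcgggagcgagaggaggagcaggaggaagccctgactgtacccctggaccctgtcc
In the windows shown, Ltbp1 held 3 CCAAT matches, Col11a1 1 CCAAT and 2 GGGCGG, Ogn 1 CATTCC and 2 overlapping TATAAA matches on opposite strands, and Col6a3 no match. The window of the other Ltbp1 start held no match to the capitalised letters. RefSeq promoters were matched for 25 of the 37 members, with 32 windows. The GC box stood in 56.2% of these windows and in 32.7% of all 32851 promoter windows of the same length. The CCAAT box stood in 25.0% of the member windows and 33.8% of all windows, the TATA box in 15.6% and 12.4%, the AP-1 letters in 3.12% and 4.46%, and the TEAD letters in 12.5% and 12.6%. The E-box letters CANNTG, not capitalised here, stood in 59.4% and 66.2%. A match of letters is a description of sequence and shows no binding.

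Among the microfibril proteins, Ltbp1 (Entrez 268977, chromosome 17), whose product anchors latent TGF-beta in the matrix, had 4094, 4503 and 4977 normalised reads in the KO libraries, against 1329, 853 and 923 in the CON libraries. The KO values were close together and all stood above the highest CON value. The mean was 4525 ± 442 in KO and 1035 ± 257 in CON (SD, n = 3 each), a 4.37-fold difference (log2 difference 1.98 on the variance-stabilised scale, SE 0.22, adjusted p = 0.000349 by limma). Fbn2 (Entrez 14119), which encodes the fibrillin most abundant in developing tissue, had 8146, 5715 and 6556.5 normalised reads in KO against 1511, 3430.3 and 1417.5 in CON. CON 2 stood apart from the other CON libraries, and the groups still did not overlap (3.21-fold, log2 difference 1.70, SE 0.30, limma adjusted p = 0.00499). Fbn1 (Entrez 14118), the fibrillin of mature microfibrils and of the human zonule, had 618.5, 573 and 686 normalised reads in KO against 161.5, 72.4 and 208 in CON. Each KO value was at least 573 and no CON value passed 208 (4.25-fold, log2 difference 1.44, SE 0.27, limma adjusted p = 0.00661). On GRCm38, 20.3% of the exon bases of Fbn1 overlap exons of Gm9913 on the opposite strand. Whether the counting used strand is not given in the sources used here, so reads in that stretch cannot be assigned.

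The calls of Ltbp1, Fbn2 and Fbn1 held whichever library was left out, with adjusted p up to 0.00316, 0.0242 and 0.031. Ltbp2, a microfibril component whose loss in humans causes glaucoma and lens dislocation, had 76.6, 97.4 and 80.9 normalised reads in KO against 6.33, 0 and 0 in CON. The KO values were alike and the CON reads, 6 in all, came from CON 1. Its mean was too low for the test. When all 27179 genes were tested, where 1.06% were called higher, Ltbp2 was called (log2 difference 1.22, limma adjusted p = 0.045). Only its KO mean, where it was high, reached the level of the filter, so this call is no support for a rise. 11.3% of its exon bases overlap the antisense gene D030025P21Rik. Ltbp3, a further binding protein of latent TGF-beta, had 360.0, 438 and 398 normalised reads in KO against 131, 293 and 70.8 in CON and was not called (log2 difference 0.90, SE 0.30, limma adjusted p = 0.0801), although the groups did not overlap. Without CON 2 it was called (limma adjusted p = 0.0298).

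The small microfibril glycoprotein genes did not move with the fibrillins. Mfap2, which encodes MAGP-1, had 20145, 13543 and 12382 normalised reads in KO against 17154, 26093 and 29831 in CON. KO 1 lay above CON 1, so the groups overlapped (log2 difference -0.65, SE 0.26, limma adjusted p = 0.133). Without CON 1 Mfap2 was called lower (limma adjusted p = 0.0273). Scaled by the library total, its difference was 0.19. Mfap4 had 7615, 6325 and 6144 normalised reads in KO against 6791, 6813.5 and 8472 in CON, with overlapping groups (log2 difference -0.13, SE 0.20, limma adjusted p = 0.723). Mfap5, which encodes MAGP-2, had at most 7.93 normalised reads in KO and at most 27.4 in CON, and 3 of its 6 values were 0. Per kilobase of exon, Mfap2 was the most abundant of the 37 genes in both groups, at 13494 normalised reads per kilobase in KO and 21405 in CON. Fbn2 stood at 616 per kilobase in KO and 192 in CON, and Fbn1 at 52.1 in KO and 12.3 in CON. Of the fibrillin reads per kilobase, Fbn2 made up 91.2% to 93.5% in KO and 88.1% to 98.1% in CON, so the shares of the fibrillins overlapped between the groups while both genes rose.

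Among elastic fibre proteins, Fbln1, which encodes a fibulin that binds elastin and fibronectin, had 1272, 2209 and 1650.1 normalised reads in KO against 1059.8, 519 and 348 in CON. KO 1 was only a little above CON 1 (log2 difference 1.28, SE 0.32, limma adjusted p = 0.026), and the call was lost without KO 2, KO 3, CON 2 or CON 3 (adjusted p up to 0.124). Efemp1, which encodes fibulin-3, had 429, 432 and 206 normalised reads in KO against 75.0, 148 and 22.1 in CON. The groups did not overlap, and KO 3 was the lowest of its group (log2 difference 1.25, SE 0.33, limma adjusted p = 0.0318, lost without KO 1, KO 2 or CON 3 with adjusted p up to 0.142). Fbln2, a fibulin of basement membranes and microfibrils, had 209, 964 and 488 normalised reads in KO against 131, 283 and 57.5 in CON, with KO 1 inside the CON range (log2 difference 1.15, SE 0.41, limma adjusted p = 0.0976). Without KO 1 it was called (limma adjusted p = 0.0403).

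Fbln5, which encodes a fibulin that guides elastic fibre assembly, lay between 12.7 and 89.6 normalised reads in KO and between 22.2 and 111 in CON. Elastin itself, Eln, had 107, 48.1 and 18 normalised reads in KO against 2.11, 37.8 and 0 in CON, too few for the test. KO 3 fell below CON 2, so the groups overlapped. Of the lysyl oxidases, which cross-link elastin and collagen, Loxl1 had 437, 1824 and 1847 normalised reads in KO against 4521, 1709 and 1108 in CON. CON 1 was the highest and KO 1 the lowest library, and the groups overlapped (log2 difference -0.74, SE 0.51, limma adjusted p = 0.393). Lox had 77.8, 18.6 and 30.7 normalised reads in KO against 54.9, 75.5 and 0 in CON and was not tested.

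**Figure D2:**
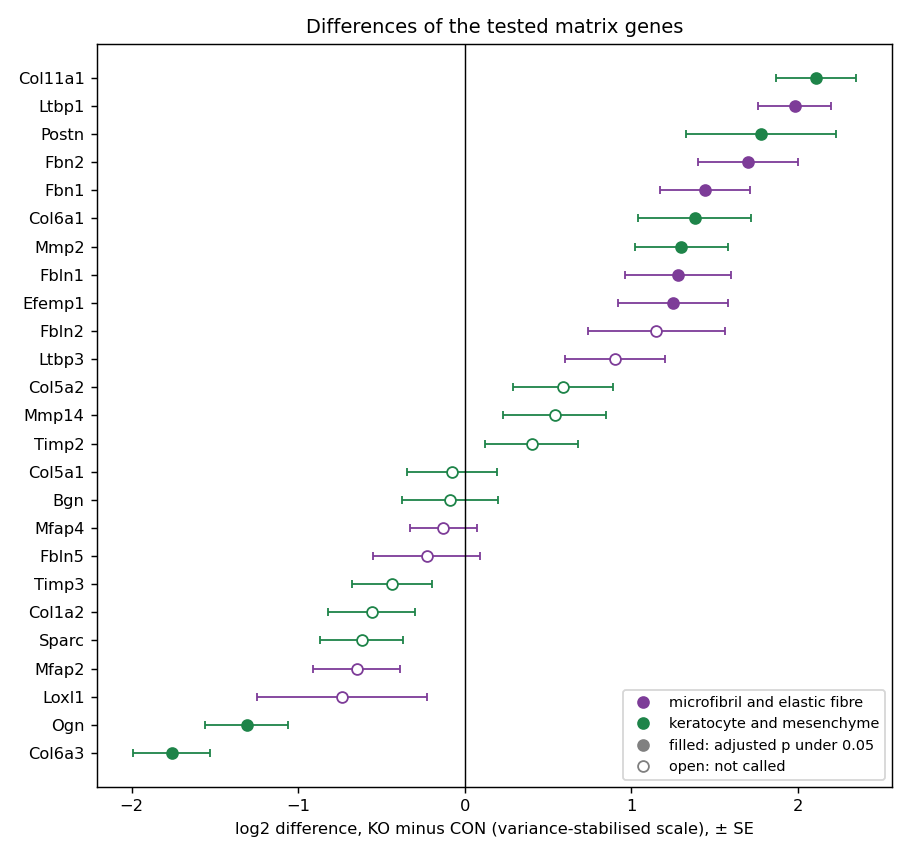
Log2 difference, KO minus CON, on the variance-stabilised scale with its SE for the 25 tested matrix genes, purple for the microfibril and elastic fibre side and green for the keratocyte and mesenchyme side. Filled points are the 11 genes called at an adjusted p under 0.05, and they run from -1.76 for Col6a3 to 2.11 for Col11a1.

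Of the fibrillar collagens, only Col11a1 passed the test among the 4 tested. Col11a1 (Entrez 12814, chromosome 3), a minor chain that nucleates thin collagen fibrils in cartilage and vitreous, had 678, 545 and 657.5 normalised reads in KO against 59.1, 44.1 and 41.3 in CON. The lowest KO value was far above the highest CON value. The mean was 627 ± 71.4 in KO and 48.2 ± 9.59 in CON (SD, n = 3 each), a 13.0-fold difference (log2 difference 2.11, SE 0.24, limma adjusted p = 0.000476, up to 0.00304 with 1 library left out). The variance-stabilised scale shrinks differences of genes with few reads. On log2 of normalised reads plus 1 the difference of Col11a1 was 3.69.

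The collagen V chain genes, whose products form fibrils with collagen XI, were not called. Col5a1 had 110.0, 84.8 and 162 normalised reads in KO against 131, 182.5 and 85.5 in CON (limma adjusted p = 0.897). Col5a2 had 76.6, 276.5 and 123 in KO against 53.8, 66.1 and 56.0 in CON. Its KO values all lay above the CON values but were wide apart (log2 difference 0.59, SE 0.30, limma adjusted p = 0.24). Of the reads per kilobase of Col11a1, Col5a1 and Col5a2 together, Col11a1 made up 78.2%, 57.8% and 69.4% in the KO libraries, against 24.5%, 15.4% and 22.4% in the CON libraries.

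The main collagens of fibroblasts were scarce in every library. Col1a1, which encodes the collagen I alpha 1 chain, had 43.2, 90.8 and 81.9 normalised reads in KO against 23.2, 0 and 0 in CON and was not tested. Its partner chain gene Col1a2 had 62.2, 58.3 and 103 in KO against 146, 145 and 206.5 in CON, and its groups were separate in the other direction (log2 difference -0.56, SE 0.26, limma adjusted p = 0.19). The chains of one protein thus stood in opposite order without a call for either. Per kilobase, Col1a1 made up 38.5% to 58.4% of the collagen I reads in KO and 0% to 12.6% in CON. Col3a1, the collagen that accompanies collagen I in soft tissue, lay between 5.18 and 31.3 normalised reads in KO and between 10.3 and 179 in CON.

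Collagen VI forms beaded microfilaments of heterotrimers around cells, and of its 3 chain genes Col6a3 fell. Col6a3 (Entrez 12835, chromosome 1) had 3588, 2667 and 2637 normalised reads in KO against 8623, 9391 and 13785 in CON. No KO value reached the lowest CON value. The mean was 2964 ± 540.4 in KO and 10599.8 ± 2785 in CON (SD, n = 3 each), 3.58-fold lower in KO (log2 difference -1.76, SE 0.23, limma adjusted p = 0.000933, up to 0.00585 with 1 library left out). Col6a1 (Entrez 12833, chromosome 10) had 107, 218 and 137 normalised reads in KO against 54.9, 0 and 0 in CON. Each KO library stood above CON 1, the only CON library with reads (log2 difference 1.38, SE 0.34, limma adjusted p = 0.0234). Col6a1 entered the test only through the KO libraries, where it was high, so its call is no support for a rise. The call was lost without KO 2, KO 3, CON 2 or CON 3 (limma adjusted p up to 0.121) and with limma-voom (adjusted p = 0.146). Its neighbour Col6a2 had 58.7, 30.1 and 12.7 normalised reads in KO against 30.6, 0 and 0 in CON and was not tested.

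Per kilobase of exon, the Col6a3 chain made up 80.8% to 90.2% of the collagen VI reads in KO and 97.7% to 100% in CON. Col6a3 thus held the largest share in each of the 6 libraries, and its share was lower in each KO library than in any CON library. Col12a1, which encodes a collagen that coats fibrils, had no reads in CON and 4.23 normalised reads in KO 3 alone.

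**Figure D3:**
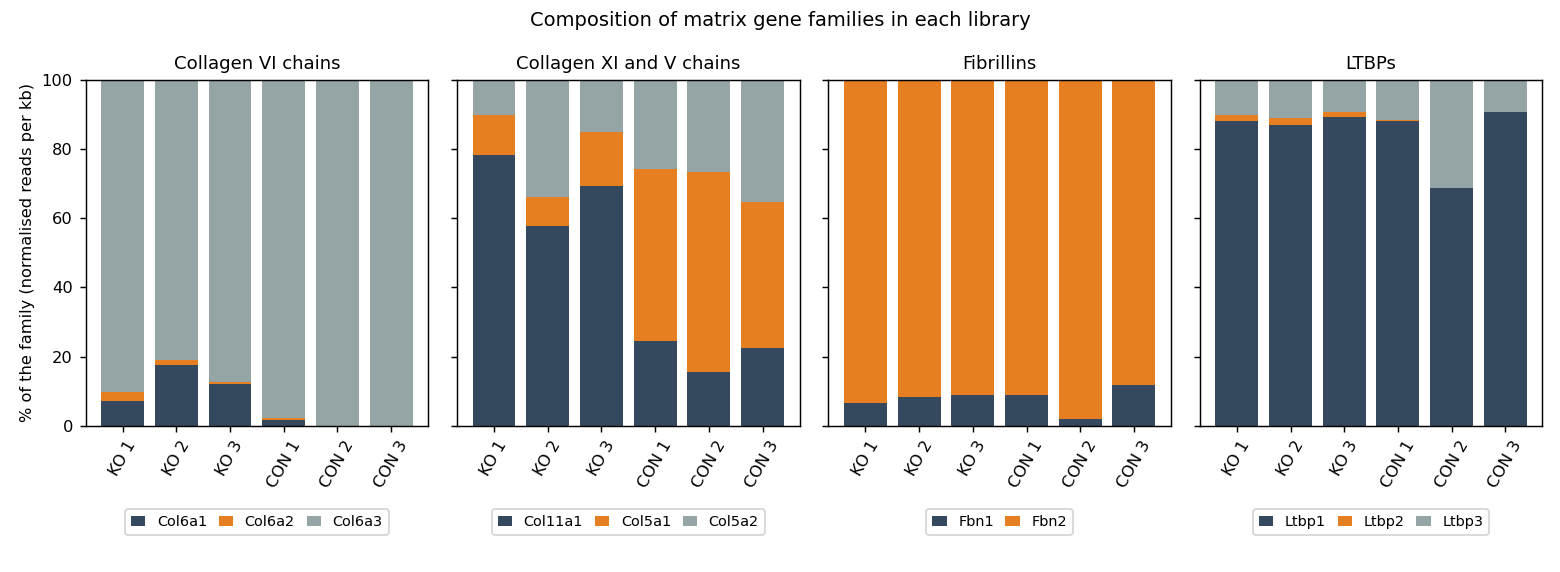
Share of each gene in its family's normalised reads per kilobase of exon, in percent, for KO 1 to 3 at the left and CON 1 to 3 at the right of each panel. Col11a1 makes up 57.8% to 78.2% of its panel in KO and 15.4% to 24.5% in CON, and Col6a3 fills 97.7% or more of the collagen VI panel in CON.

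Small leucine-rich proteoglycans bind collagen fibrils and set their spacing. Ogn (Entrez 18295, chromosome 13), which encodes osteoglycin, had 12625, 7713.5 and 7913 normalised reads in KO against 18277, 22927 and 29325.5 in CON. All KO values lay below the CON values, with KO 1 the highest of its group (2.50-fold lower in KO, log2 difference -1.31, SE 0.25, limma adjusted p = 0.00692, up to 0.0386 with 1 library left out). The Ogn call was lost when reads were divided by the library total (log2 difference -0.49, limma-voom adjusted p = 0.064). Bgn, the biglycan gene, had 122, 171 and 96.2 normalised reads in KO against 214, 72.4 and 169.6 in CON, and its groups overlapped (limma adjusted p = 0.886).

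Kera, Lum and Dcn had few reads or none. Kera, the keratocan gene and a defining marker of corneal keratocytes, had 0 reads in all 6 libraries, which allows up to 1.59 to 1.80 normalised reads in KO and 3.17 to 9.44 in CON. Lum, the lumican gene, had 21.9, 16.2 and 0 normalised reads in KO against 0, 145 and 0 in CON. Dcn, the decorin gene, had 63.9, 37.9 and 16.4 in KO against 29.6, 97.6 and 0 in CON. Lum and Dcn were not tested, and their groups overlapped. Per kilobase, Ogn stood at 3670.0 normalised reads in KO and 9162 in CON, whereas Lum stood at 5.19 in KO and 19.7 in CON.

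Of the matricellular proteins, which signal to cells more than they bear load, Postn, the periostin gene, had 728.5, 475 and 304 normalised reads in KO against 59.1, 0 and 211 in CON. The lowest KO value was above the highest CON value, and both groups were spread widely (log2 difference 1.78, SE 0.45, limma adjusted p = 0.0265). The call was lost without KO 1, KO 2 or CON 2 (adjusted p up to 0.0977). Tnc, the gene of tenascin-C, a glycoprotein of developing and injured tissue, had 93.9, 98.6 and 160.1 normalised reads in KO against 8.45, 0 and 0 in CON. Its reads in CON, 8 in all, came from CON 1, and it was too low to be tested. With all genes tested its difference was 1.40 (limma adjusted p = 0.0633). Sparc, whose product is a collagen chaperone and a component of the lens capsule, had 31373, 21897 and 20729 normalised reads in KO against 27381, 41186 and 46189 in CON. KO 1 stood above CON 1 (log2 difference -0.62, SE 0.25, limma adjusted p = 0.142), and without CON 1 Sparc was called lower (adjusted p = 0.0269). Divided by the library total, its difference was 0.23.

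Of the matrix proteinases, Mmp2, which encodes gelatinase A, had 486, 676 and 421 normalised reads in KO against 203, 75.5 and 122 in CON. The groups were separate (3.95-fold, log2 difference 1.30, SE 0.28, limma adjusted p = 0.0121), and the call was lost without KO 2 (adjusted p = 0.0808). Mmp14, which encodes the membrane proteinase that activates pro-MMP2, had 352.5, 209.8 and 108 normalised reads in KO against 66.5, 123 and 125 in CON. KO 3 lay inside the CON range (log2 difference 0.54, SE 0.31, limma adjusted p = 0.29). Timp2, the inhibitor that takes part in the same activation, ranged from 438 to 836 in KO and from 296 to 551 in CON (limma adjusted p = 0.398). Timp3, an inhibitor bound to the matrix, ranged from 5836 to 6878 in KO and from 6033 to 11457 in CON (limma adjusted p = 0.278).

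Other genes of matrix assembly were read from further lists, whose counts stand against 6.91% higher and 4.39% lower over all tested genes. With the library name style as a term, KO 1 alone stands against the CON libraries, so only differences are given for that fit. The log2 difference was then 1.71 for Vcan, -1.19 for Emilin3, -1.01 for Thsd4, -0.98 for P4ha1 and 0.67 for P4hb. It was 2.46 for Plat, 1.39 for Adamts5, 1.61 for Adamts1 and 0.97 for Serpinf1. Of 15 tested genes among 23 further microfibril and zonule genes, 1 rose and 2 were called lower, with the 1 rise close to the share over all genes. Vcan, the versican gene, whose product binds fibrillin and hyaluronan, rose to 576 ± 43.1 normalised reads in KO against 81.5 ± 40.8 in CON (SD, n = 3 each; limma adjusted p = 0.00202). Emilin3 averaged 6.59 ± 7.64 in KO and 166 ± 85.3 in CON (limma adjusted p = 0.0104). It passed the filter only through the CON libraries, where it was high, and lost its call without KO 3 (limma adjusted p = 0.0531) and with limma-voom (adjusted p = 0.0701). Thsd4, which encodes ADAMTSL6, a promoter of fibrillin microfibril assembly, fell to 343 ± 82.0 in KO against 878 ± 232 in CON (limma adjusted p = 0.0241). It lost its call without KO 1, KO 2 or CON 2 (limma adjusted p up to 0.136) and when scaled by the library total (limma-voom adjusted p = 0.243).

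Of 19 tested genes among 27 of collagen synthesis and processing, 1 rose and 1 fell, a share close to the 6.91% and 4.39% of all tested genes. P4ha1, which encodes the catalytic subunit of collagen prolyl 4-hydroxylase, fell to 3983 ± 1323 normalised reads in KO against 10823 ± 1019.8 in CON (log2 difference -1.45, SE 0.24, limma adjusted p = 0.00366, and limma-voom adjusted p = 0.0631 when scaled by the library total). P4hb, its partner subunit and also a general disulfide isomerase, rose to 6183 ± 667.5 in KO against 3382 ± 751 in CON (limma adjusted p = 0.0259), and lost its call without KO 2, KO 3, CON 2 or CON 3 (adjusted p up to 0.129). Serpinh1, the collagen chaperone gene, was not called (log2 difference 0.42, limma adjusted p = 0.194).

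Of 10 tested genes among 23 further matrix proteinases and inhibitors, 6 rose and none fell, where 6.91% of all tested genes were called higher. Plat, which encodes tissue plasminogen activator, had 5957 ± 2091 normalised reads in KO and 1381.5 ± 196 in CON (limma adjusted p = 0.000897). The versicanase gene Adamts5 had 1191 ± 334 in KO and 237 ± 53.8 in CON (limma adjusted p = 0.00189), and Adamts1 661 ± 418 in KO and 65 ± 58.4 in CON (limma adjusted p = 0.00863). The Adamts1 call was lost with limma-voom (adjusted p = 0.112) and on log2 of normalised reads plus 1 (limma adjusted p = 0.0609). Serpinf1, the gene of pigment epithelium-derived factor, rose 2.12-fold (limma adjusted p = 0.0099, and 0.0702 without KO 2). Of 11 tested among 14 TGF-beta ligands, receptors and mediators, 0 were called by limma on the deposited values or by limma-voom on the recovered reads, and 3 had an unadjusted p under 0.05. Among those 3 was Tgfb2, the main TGF-beta ligand gene of the eye (log2 difference 0.56, limma adjusted p = 0.0796).

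Markers of other cell types also differed in part between KO and CON lenses, and their counts stand against 6.91% higher and 4.39% lower over all tested genes. Of 20 periocular mesenchyme and fibroblast genes, Lmx1b, Tcf21, Tbx18, Osr2 and Dpt had 0 reads in all libraries, and the summed normalised reads ran from 1375 to 2480 in KO and from 1985 to 2271 in CON. Cd34 had the highest mean, 822 in KO and 966 in CON. Of the 5 tested, 4 had an unadjusted limma p under 0.05. All KO values lay above all CON values for 4 of the 20 and below for 1, against 15.3% and 9.36% of genes with reads. Prrx1, which passed the filter only through KO, had 109, 163 and 100 in KO against 25.3, 25.2 and 39.8 in CON (limma adjusted p = 0.0726). Within that list Meox1 was called higher and Pdgfra, a receptor gene that lens epithelium also expresses, lower (189 ± 21 normalised reads in KO and 758 ± 212 in CON; limma adjusted p = 0.00616). Meox1 had 207 ± 95.9 in KO and 25.4 ± 17.9 in CON (limma adjusted p = 0.0183). It passed the filter only through KO, where it was high, and its call was lost without KO 1 or KO 2 (limma adjusted p up to 0.129) and with limma-voom (adjusted p = 0.122). The 6 further keratocyte genes summed to 6501 to 8278 in KO and 3318 to 5502 in CON, almost all of it from Ptgds, which other eye tissues also express. Ptgds was the 1 gene tested and was called neither by limma nor by limma-voom, at an unadjusted p under 0.05.

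Macrophage genes, 9 of 13 called higher by limma and 5 by limma-voom, summed to 18465, 9881 and 6483 normalised reads in KO 1 to 3 and to 1784 to 2929 in CON. Among the 9, Adgre1 and Ptprc passed the filter only through KO. Ciliary margin genes, 2 of 6 tested called higher (Zic2 passing the filter only through KO), summed to 14423 to 14923 in KO and 5907 to 9629 in CON. Retina genes, 1 of 6 tested called higher, summed to 3173 to 4948 in KO and 1583 to 1908 in CON. In the retina list 5 genes had all KO values above all CON values and 1 had them below. Over all genes with reads these shares were 15.3% and 9.36%. Pigment cell genes, 1 of 6 tested called higher with Rpe65 at 0, summed to 11468 to 18860 in KO and 8950.4 to 10995 in CON. Of corneal and surface epithelium genes only Perp was tested, and it was called higher. The list summed to 2657 to 7480 in KO and 442.5 to 1041 in CON, where Krt5, Krt14 and Krt12 reached at most 2.11 normalised reads. The part of these cells in the rises of Ltbp1, Fbn1, Fbn2, Col11a1, Mmp2 and Postn was not tested.

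Endothelial genes, 11 of 11 tested and 0 called by limma or limma-voom, with 3 at an unadjusted p under 0.05, summed to 1774 to 5024 in KO and 3864 to 4318 in CON. Pericyte and smooth muscle genes, 5 of 10 tested and 0 called by limma or limma-voom, with 1 at an unadjusted p under 0.05, summed to 1443 to 4092 in KO and 1205 to 2307 in CON. Skeletal muscle genes, with 1 of 7 tested, not called, and Myl1 at 0, summed to 70.3 to 146 in KO and 79.7 to 179 in CON. Red cell genes, of which Hba-a2 fell and 3 of the 4 tested were not called, summed to 2253 to 3631 in KO and 4414 to 6826 in CON. All 4 tested had an unadjusted limma p under 0.05. For 4 genes of that list all KO values lay below all CON values, where 9.36% of the genes with reads did so.

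**Figure D4:**
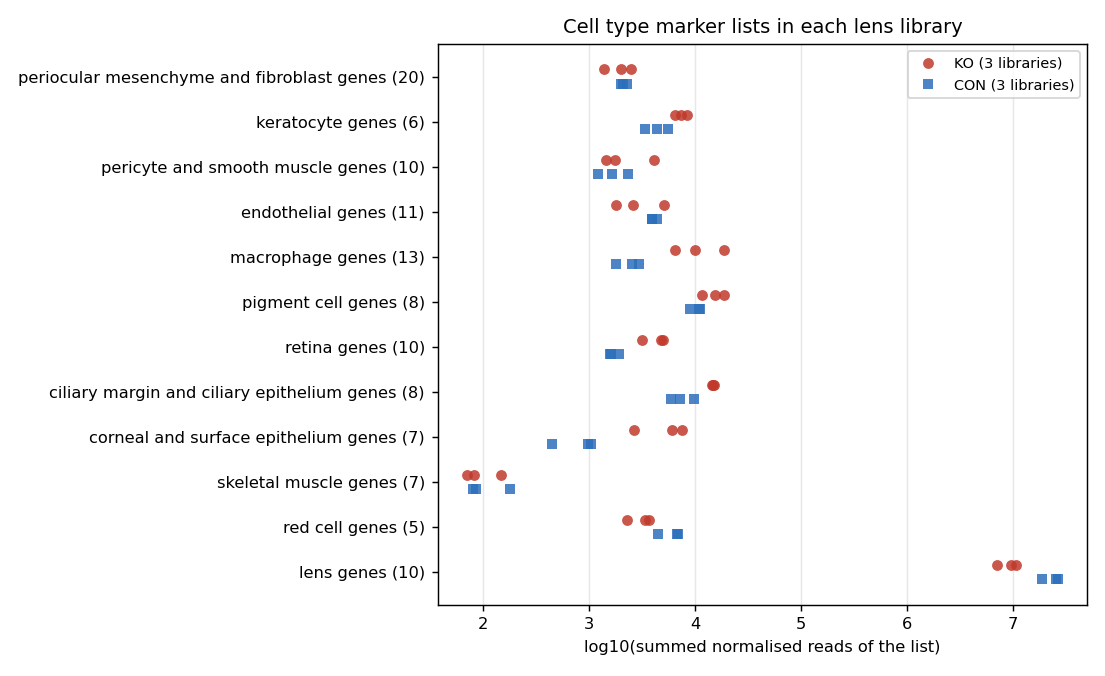
Summed normalised reads of each marker list, as log10, in KO circles above CON squares, with the number of genes found in brackets. Macrophage, retina, ciliary margin, keratocyte, pigment cell and corneal and surface epithelium sums lie higher in all KO libraries, and lens and red cell sums lower. The keratocyte sum is almost all Ptgds, and only 1 gene of each of the keratocyte and the corneal and surface epithelium lists was tested. Periocular mesenchyme, pericyte, endothelial and skeletal muscle sums overlap.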

How the data were processed

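RNA was sequenced from 6 lens libraries. The submitters' processing notes name the tools Trimmomatic, HISAT2 (2.1.0), featureCounts (1.6.4) and DESeq2 (given as 2.11.0.6) and the build mm9, with no settings. The strand setting is not given in the sources used here. The authors deposited log2 values from the variance-stabilising transformation for 27179 Entrez identifiers, of which 25275 matched a symbol. The lowest value, 6.504, belongs to genes without reads.

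From these values, read counts were recovered by inverting the transformation. Every value came out whole within 0.1. The size factors matched the median-of-ratios factors recomputed from the recovered counts.

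KO and CON were compared on the deposited log2 values with limma 3.58.1 in R 4.3.3 (variance trend, Benjamini-Hochberg adjustment over 11468 genes whose mean was at least 1 unit above the lowest value). A gene was called at an adjusted p under 0.05. Levels between genes were set per kilobase of exon, from GENCODE vM21 on GRCm38. Coordinates are those of GRCm38, and none was taken from mm9.

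All 37 members are described. Of other lists, at most 4 called genes in each direction are named, by smallest p. The members, lists and tests were chosen with earlier results of these data known. Alternatives covered the filter, the scaling, limma-voom on recovered reads, a pseudocount of 1, the variance trend, the replicate block, the library name style and leaving out each library. Limma-voom was scaled by the size factors, except where the library total is named. The script was tested on simulated data. A missing symbol (Cpamd8, Hbb-bt) was left out.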

Additional observations from a re-analysis of the deposited data

How the results depend on the processing

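Of the 37 matrix genes, 9 were called higher and 2 lower. Without the filter on low values 3 were higher and 0 lower, 2 and 1 of the higher ones from the microfibril and the mesenchyme side. Ltbp2 was among these, and only its KO mean reached the level of the filter. A filter of 3 units left 10 members tested, with 3 higher, 3 microfibril and 0 mesenchyme, and 2 lower. The median log2 difference of these members was -0.53, against -0.08 for all genes tested. With limma-voom 5 were higher, 1 of them on the mesenchyme side, and with log2 of normalised reads plus 1 there were 2 on that side. With limma-voom on reads divided by the library total 10 were higher, 7 of them on the microfibril side, and 1 was lower. Timp2, Mfap4 and Ltbp3 were gained there, and Col6a1, Ogn and Postn were lost. With the library name style as a term, KO 1 alone stood against the CON libraries, so no call is read from that fit. The median log2 difference of the tested members was 0.33 there, against 0.54 in the main fit. Leaving out each library gave 4 to 9 higher and 2 to 4 lower members, 3 to 5 higher and 0 to 1 lower on the microfibril side and 1 to 4 higher and 2 to 3 lower on the mesenchyme side. All 11 member calls held with equal library medians and without the variance trend. Col11a1, Col6a3, Ogn, Fbn1, Fbn2 and Ltbp1 held in every fit that left out 1 library and with limma-voom scaled by the size factors.

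Gclc lost its call at -1.01 without the filter, -2.16 with limma-voom, -1.45 with the library total and -2.25 with log2 of normalised reads plus 1. It stood at -1.38 with the name style, where KO 1 alone stands against CON, and ranged from -1.13 to -0.83 with 1 library left out. With limma-voom on reads divided by the library total, uncalled members turned positive. Col5a1 stood at 0.80, Bgn at 0.42, Sparc at 0.23, Timp3 at 0.33, Mfap2 at 0.19, Fbln5 at 0.02 and Mfap4 at 0.69 (limma-voom adjusted p = 0.0179). The median of all tested genes was 0.86 in that fit, above each of these values. Mfap4 was at 0.06 with the name style. With 1 library left out, Col5a1 ranged from -0.22 to 0.06 and Bgn from -0.32 to 0.08. The cause of these changes was not tested, other than that fewer genes or libraries entered some fits and more genes the one without a filter.

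With the replicate block all 11 member calls held (9 higher, 2 lower) and Gclc stood at -1.01 (limma adjusted p = 0.0643), while calls over all genes came to 605 higher and 309 lower, against 793 and 504. Libraries with the same number did not deviate together (correlations -0.36, -0.13 and -0.14), and pairs with unlike numbers ranged from -0.23 to 0.33. With 3 libraries per group, centred on their own mean, these values cannot exclude a litter or batch shared by number. Depth limits the CON side most, since a count of 0 in CON 2 allows up to 9.44 normalised reads.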

Other observations

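Some collagens of the vitreous and of cartilage rose in KO lenses. Of 7 tested among 17 further collagens and vitreous genes, 5 rose and none fell, where 6.91% of all tested genes rose. Col9a1 and Col9a3 encode chains of collagen IX, which coats thin collagen II fibrils. Col9a1 had 20248, 38275 and 39666.5 normalised reads in KO lenses, against 8859, 5579.8 and 8589 in CON lenses (log2 difference 2.03, limma adjusted p = 0.00137). Col9a3 had 911, 2202 and 1767 in KO lenses, against 322, 113 and 167 in CON lenses (log2 difference 2.31, limma adjusted p = 0.00161). Col9a2, the gene of the remaining collagen IX chain, had 195, 263 and 248 in KO lenses, against 315, 154 and 108 in CON lenses, with overlapping groups (log2 difference 0.23, limma adjusted p = 0.665), and Col11a2 was too low to be tested. For Col9a1 and Col9a3 the KO libraries were all above the CON libraries, with KO 1 the lowest of its group. Optc, the gene of the vitreous proteoglycan opticin, had 4173, 4276 and 4899.6 in KO lenses, against 913, 944 and 1507 in CON lenses (limma adjusted p = 0.000607). Col18a1, a basement membrane collagen gene, rose 2.45-fold (limma adjusted p = 0.0273) and lost its call without KO 1, KO 2, KO 3, CON 2 or CON 3 (adjusted p up to 0.101). These are also products of non-pigmented ciliary epithelium, whose marker list was higher in KO, and the part of those cells was not tested. With the library name style as a term, which sets KO 1 alone against CON, the log2 difference was 1.78 for Optc, 1.41 for Col9a1 and 1.65 for Col9a3.

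Of 12 tested among 19 further proteoglycans and matricellular genes, 4 were called higher and 2 lower, where 6.91% and 4.39% of all tested genes were. Prelp, a proteoglycan gene of the same family as Ogn, had 1713, 4153 and 4065 normalised reads in KO lenses, against 210.1, 220.3 and 82.6 in CON lenses (log2 difference 3.36, limma adjusted p = 0.000227), so it stood opposite to Ogn. Tgfbi, a TGF-beta induced adhesion protein gene, had 1554, 1671 and 841 in KO lenses, against 41.2, 0 and 90 in CON lenses (limma adjusted p = 0.000423). It passed the filter only through KO, where it was high, and lost its call with limma-voom (adjusted p = 0.0624) and without the filter (limma adjusted p = 0.0578). Ccn1 rose 6.33-fold (limma adjusted p = 0.0042), and Fn1, the fibronectin gene, 4.04-fold (limma adjusted p = 0.0484, lost without KO 1, KO 2, CON 1, CON 2 or CON 3, up to 0.164, and with limma-voom, 0.116). Thbs1, the thrombospondin-1 gene, was 4.85-fold lower in KO lenses (limma adjusted p = 0.0111, and limma-voom adjusted p = 0.0601 when scaled by the library total). Nid1, a basement membrane linker gene, was 1.78-fold lower (limma adjusted p = 0.0353, up to 0.185 without KO 1, KO 2, KO 3 or CON 3, and limma-voom adjusted p = 0.986 when scaled by the library total).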
